A study of Mus musculus with 22 samples.

Results

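The comparison was between mammary tissues with many and with few dividing cells, as far as RNA shows it. All 22 mice of the series were ranked by a division score, the mean of log2(CPM + 1) over Mki67, Top2a, Cdk1 and Birc5, where CPM is the count of a gene scaled to a fixed total of reads, set by the authors. The 6 highest mice were set against the 6 lowest, 12 of 22 mice in all, and the 10 mice between them served as mice that the comparison had not used. The 4 ranking genes chose the mice, so their values are given as a description. The mice were female C57BL/6J animals aged 7 to 8 weeks, and all of them carried EO771 cells, a mammary cancer line of the same strain that had been made to express firefly luciferase. In each, 100000 of these cells were placed in a left mammary fat pad, after 2 weeks with a running wheel (wheel) or with the hub of the wheel alone (control). Liposomes holding PBS or clodronate were given by vein 24 hours before and at engraftment, and the tissue was taken 24 hours after it. Clodronate liposomes are used to deplete phagocytic cells such as macrophages. There were 6 mice each in the control PBS and wheel PBS groups and 5 each in the control clodronate and wheel clodronate groups.

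Cells that divide switch on a shared set of genes in order. E2F factors start the G1/S and replication genes, and the later mitotic genes are driven by factors that act on CCAAT and CHR elements in their promoters. Mki67 coats mitotic chromosomes and marks cycling cells, Top2a untangles DNA before chromosomes part, Cdk1 is the kinase that starts mitosis, and Birc5 (survivin) belongs to the complex that corrects chromosome attachment. In a fat pad that has just received cancer cells, dividing cells may be the engrafted cells or cells of the host, such as lymphocytes, skin or stromal cells. The table of genes had no entry for luciferase, and none of the genes listed is particular to EO771 cells, so the sources cannot be told apart by a marker. In bulk tissue, fewer cells of a type and less RNA per cell cannot be told apart either.

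The division score ranged from 5.34 in control PBS 1 to 1.53 in control clodronate 4. The high mice were control PBS 1 (5.34), control PBS 4 (5.32), wheel PBS 4 (5.24), control PBS 6 (5.19), control clodronate 3 (5.08) and wheel clodronate 3 (5.01). The low mice were wheel clodronate 2 (3.05), control clodronate 1 (2.63), wheel PBS 6 (2.43), wheel PBS 1 (2.02), control PBS 5 (1.65) and control clodronate 4 (1.53). The ranking fell off slowly between these ends. The first mouse outside the high group, control PBS 2, had a score of 4.45, and the first outside the low group, wheel PBS 2, had 3.21. Ranking by the mean of the mitotic regulators, by z-scores of the 4 genes or after upper-quartile scaling picked the same 6 high and 6 low mice.

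**Figure D1:**
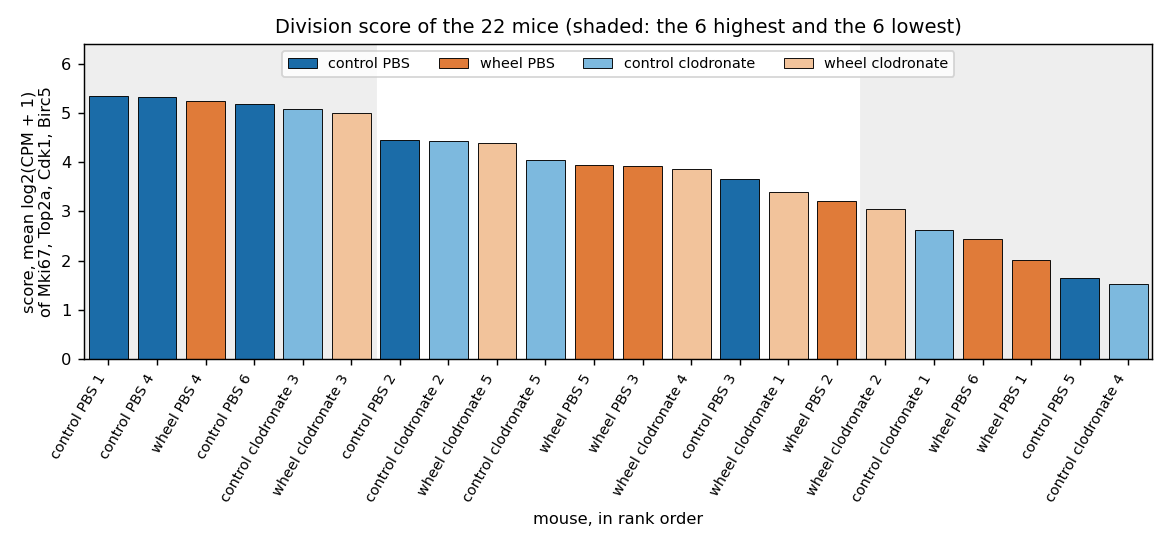
Bars give the division score, the mean log2(CPM + 1) of the 4 ranking genes, for each of the 22 mice in rank order, coloured by group. The 6 highest mice lie between 5.01 and 5.34 and the 6 lowest between 1.53 and 3.05, with mice of all 4 groups at both ends.

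The ranking genes themselves were far apart in the high and low mice, as the rule requires. Top2a had 78.3 to 131 CPM in the high mice (median 113) and 3.30 to 19.3 in the low mice (median 7.91). Birc5 had 26.1 to 47.3 CPM in the high mice (median 39.4) and 1 to 7.27 in the low mice (median 1.92). Mki67 was the least even of the 4. It stood at 50.8 CPM in control PBS 4 and at 8.30 to 17.5 CPM in the other 5 high mice, so 1 mouse set the top of its range.

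The high and low mice did not fall to one side of the design. The 6 high mice held 2 wheel and 4 control mice, and the 6 low mice held 3 wheel and 3 control mice (Fisher's exact test, two-sided p = 1). Clodronate liposomes had been given to 2 of the 6 high and 3 of the 6 low mice (Fisher's exact test, two-sided p = 1). Control PBS gave 3 high and 1 low mouse, wheel PBS 1 and 2, control clodronate 1 and 2, and wheel clodronate 1 and 1.

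Over all mice the score was likewise not separated by treatment beyond its spread. Among mice given PBS liposomes, wheel running went with a score of 3.46 ± 1.17 (SD, n = 6) and the hub alone with 4.27 ± 1.44 (SD, n = 6). The difference of -0.81 gave two-sided p = 0.31 in an exact permutation test. After clodronate liposomes the score was 3.94 ± 0.78 (SD, n = 5) with a wheel and 3.54 ± 1.44 (SD, n = 5) with the hub, and the same test gave an exact two-sided p = 0.619 for the difference of 0.39. Clodronate minus PBS liposomes came to -0.13 (permutation within activity, two-sided p = 0.813), and the wheel effects differed between liposomes by 1.2 (permutation within liposome, two-sided p = 0.254). The lowest Benjamini-Hochberg value over these 4 comparisons was 0.619. Scores of single mice within a group lay up to several log2 units apart, so an effect of activity or liposome was not detectable at this spread, which does not show that none exists.

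**Figure D2:**
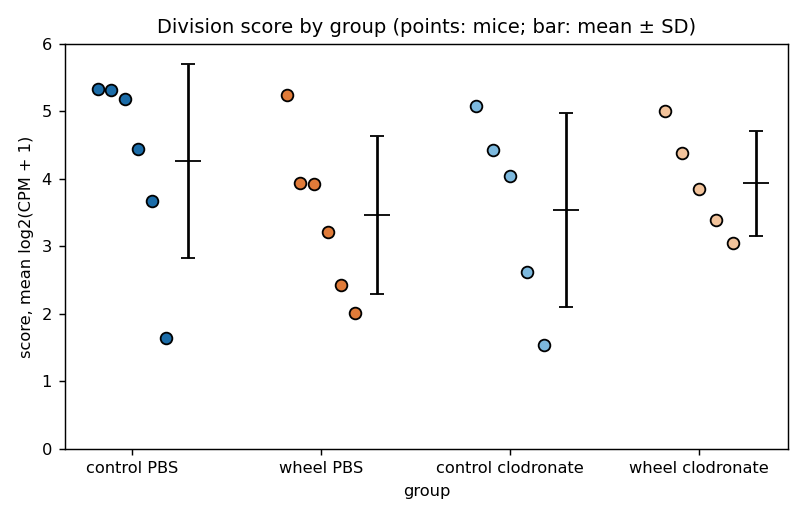
Points give the division score (mean log2(CPM + 1) of 4 genes) of each mouse in the 4 groups, and the black bar beside them the mean ± SD. Every group spans a wide range, from 1.65 to 5.34 in control PBS and from 3.05 to 5.01 in wheel clodronate, and all 4 overlap.

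Across all genes above 1 CPM in at least 5 mice, 15131 were tested without the ranking genes. In the high mice 425 genes were higher (2.81% of those tested) and 58 lower (0.383%) at an adjusted p under 0.05 in limma, a linear model fitted over all genes with Benjamini-Hochberg adjustment. Of all genes that passed, 88.0% were higher. That share was 71.4% after upper-quartile scaling (324 higher, 130 lower), 74.1% with activity and liposome as covariates and 63.4% for a slope over all 22 mice. Of the 425, 101 were in the 8 lists of cell division genes, 1 was a cell cycle inhibitor, and 323 were in neither. Since the mice were chosen by measured values, p says here that a gene goes with the ranking and nothing of a treatment. The median gene was 0.07 higher on the log2(CPM + 1) scale, on which all differences are given and which understates changes near the floor of 1 CPM.

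Genes of cell division were higher together with the 4 genes that ranked the mice. Members of the 8 lists from G1/S to mitosis share the program used for ranking, so they are described without p. Of 163 such genes 159 were tested, and 157 had a difference above 0, against 58.2% of all genes. Of the 159, 101 passed the threshold, against 2.81% of all genes. In 92 of the 159 every high mouse was above every low mouse, against 2.59% of all genes. Genes lower in every high mouse than in any low mouse made up 0.344% of all genes. The median difference of the 159 was 1.29.

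Kinetochore genes, which hold chromosomes to the spindle, had a median difference of 1.74, and 18 of 22 passed. Cenpf (chr1:189640606-189688086, GRCm38), a large kinetochore protein, had 24.5 to 65.7 CPM in the high mice (median 43.7) and 1.09 to 9.52 in the low mice (median 3.46), a difference of 3.27 (SE 0.36). Every high mouse was thus above every low one. Cenpe, a motor that brings chromosomes to the middle of the spindle, differed by 2.85, and Cdca8 (borealin), a partner of Birc5, by 2.69.

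Spindle and cytokinesis genes were close behind with a median of 1.73 and 22 of 26 past the threshold. Tpx2, which activates the kinase Aurora A on the spindle, had 16.2 to 39.5 CPM in the high mice and 1 to 5.52 in the low mice, a difference of 3.12. Ckap2l, a microtubule-binding protein of the spindle, differed by 2.77, and Kif23, a motor needed to split the cell at the end of mitosis, by 2.67. Among the mitotic regulators 19 of 24 passed, with a median of 1.48. Plk1, a kinase of mitotic entry and exit, had 13.1 to 29.1 CPM in the high mice and 1 to 3.56 in the low mice, and the 2 groups did not overlap. Cdc20, which turns on the ubiquitin ligase that lets chromosomes part, differed by 2.73, and Ccna2 (cyclin A2) by 2.58.

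Promoters of some of the leading mitotic genes, picked by hand, are shown because these genes moved together. Each line below gives the 120 bases before the start of the gene, 5′ to 3′ on its own strand, from RefSeq on GRCm38.p6, with 2 kinds of motif, searched on both strands, in capitals. One is CCAAT, whose reverse complement is ATTGG. The other is the CHR element, searched as TTTGAA with its reverse complement, which reads TTCAAA, and as the palindrome spelled TTCGAA.
Cenpf, chr1:189688087-189688206, minus strand: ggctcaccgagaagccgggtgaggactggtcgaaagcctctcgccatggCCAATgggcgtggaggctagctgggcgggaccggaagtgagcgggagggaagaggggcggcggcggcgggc
Ckap2l, chr2:129297213-129297332, minus strand: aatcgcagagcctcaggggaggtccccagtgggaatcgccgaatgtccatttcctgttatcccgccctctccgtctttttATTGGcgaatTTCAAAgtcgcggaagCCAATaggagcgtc
Cdc20, chr4:118437344-118437463, minus strand: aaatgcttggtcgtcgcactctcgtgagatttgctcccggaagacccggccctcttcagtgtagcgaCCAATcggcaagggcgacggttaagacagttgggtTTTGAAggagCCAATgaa
Kif23, chr9:61946800-61946919, minus strand: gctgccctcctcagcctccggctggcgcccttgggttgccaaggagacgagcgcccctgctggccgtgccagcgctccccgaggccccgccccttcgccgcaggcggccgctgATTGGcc

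The Cenpf window held 1 CCAAT, whose first base lies 71 bases before the start. The Cdc20 window held CCAAT at 53 and 8 bases before the start with TTTGAA at 18 between them. In Ckap2l, TTCAAA at 30 bases lay between ATTGG at 40 and CCAAT at 14, and Kif23 held ATTGG at 7. Among the 10 genes with the largest rises, 8 had a single RefSeq promoter, all 8 had CCAAT on either strand in this window, and 2 had a CHR element, the Ckap2l and Cdc20 promoters shown. Of the 63 single promoters of the mitotic, kinetochore, spindle and chromosome structure lists, 65.1% had CCAAT and 30.2% a CHR element, against 22.4% and 7.87% of 22862 promoters in all. The 48 promoters of the replication, nucleotide, G1/S and repair lists had CCAAT in 45.8% and a CHR element in 6.25%. A match of letters describes the sequence and is not a measured binding site.

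Chromosome structure genes had a median difference of 1.42 with 11 of 13 past the threshold. Ncapg, a subunit of the condensin ring that compacts chromosomes, had 6.80 to 13.5 CPM in the high mice and 1 to 1.98 in the low mice. Smc2, the ATPase of the same ring, had 28.9 to 53.4 and 8.97 to 12.1 CPM, and neither gene overlapped between groups. Ncapg2, of the second condensin, differed by 1.85. The S-phase lists lay lower. DNA replication genes had a median of 0.96 with 15 of 34 past the threshold, led by the helicase subunits Mcm3 (2.14) and Mcm5 (2.08) and by Uhrf1 (2.08), which keeps DNA methylation through replication. Nucleotide synthesis genes had a median of 0.95 with 5 of 10 past it, led by Tk1 (thymidine kinase, 2.46) and the ribonucleotide reductase subunits Rrm2 (2.41) and Rrm1 (1.26). Repair genes of S phase had a median of 0.86 with 5 of 12 past it, led by Clspn (1.63), Rad54l (1.38) and Rad51ap1 (1.14). G1/S regulators had a median of 0.68 with 6 of 18 past it, led by E2f8 (2.12), Ccne2 (cyclin E2, 2.00) and E2f2 (1.57).

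Genes that hold the cycle back went both ways. The 14 cell cycle inhibitors had a median difference of 0.09, beside 0.07 for all genes, and 1 passed in each direction, Cdkn1a higher and Gas1 lower. The call of Cdkn1a was lost without control PBS 4 and after upper-quartile scaling. Without mice rich in markers of keratinocytes (skin cells), given below, the median was -0.34, with 2 of 13 members called higher and 3 lower. It was -0.21 without wheel clodronate 3, which was rich in lymphocyte markers. Of all genes tested, 2.81% were called higher and 0.383% lower. Cdkn1a (p21), a stress-induced inhibitor of cyclin kinases, was higher by 1.97, with 51.5 to 197 CPM in the high mice and 11.2 to 89.4 in the low mice. The groups overlapped. The 197 CPM was in control PBS 4, with 193 in control clodronate 3 and at most 78.8 in the rest of the high mice. Gas1, a growth arrest gene of stromal cells, was lower by 0.68, with 32.0 to 48.4 CPM in the high mice and 47.4 to 98.1 in the low mice, and Cdkn2c (p18) differed by -0.73 without passing.

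**Figure D3:**
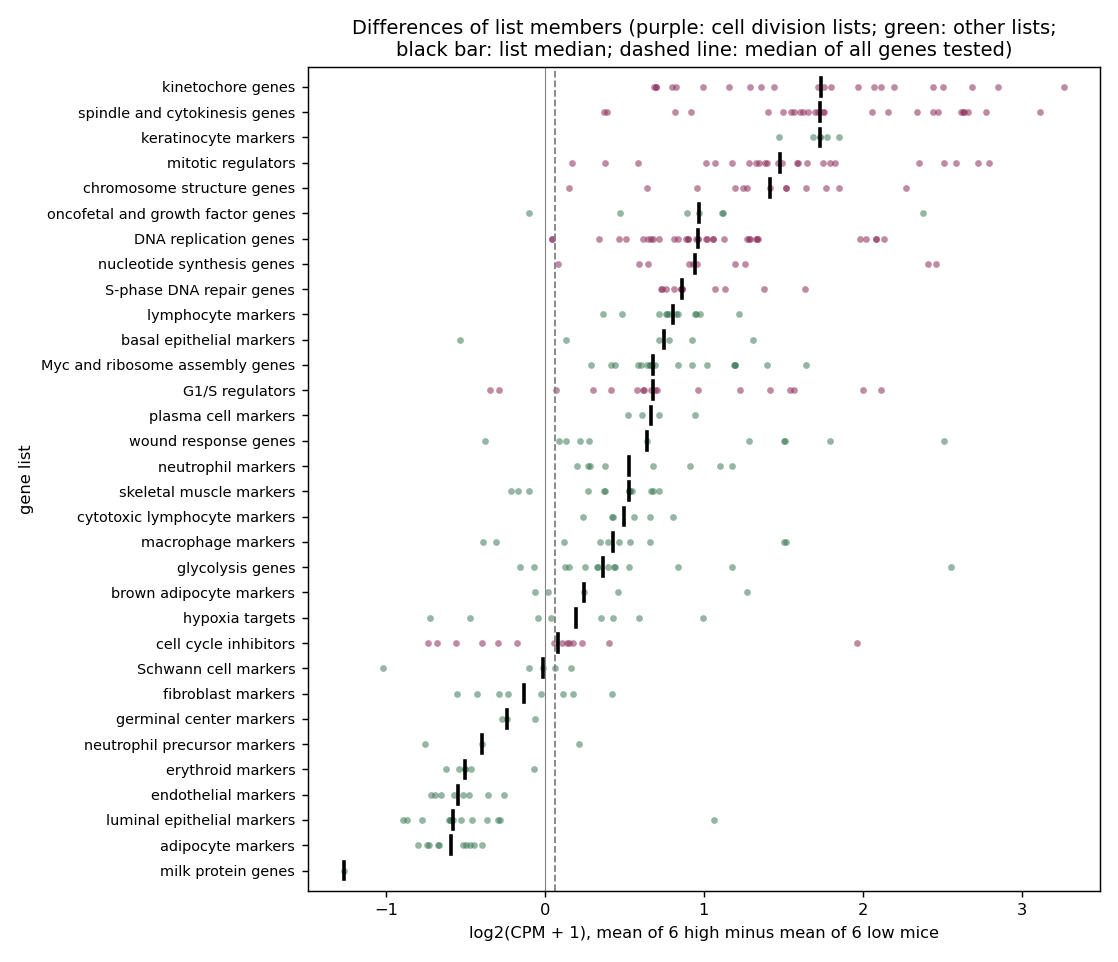
Each point is the log2(CPM + 1) difference of a list member, mean of the 6 high minus mean of the 6 low mice, with lists ordered by their median (black bar). Medians run from 1.74 for kinetochore genes to -1.26 for the single milk protein gene tested, and the dashed line marks the median of all genes, 0.07.

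Outside the division lists, the largest rise past the threshold was that of Il1rn (chr2:24336853-24351494, GRCm38), the antagonist of the interleukin-1 receptor. It had 5.77 to 37.2 CPM in the high mice (median 20.6) and 1 to 11.3 in the low mice (median 1.01), and the groups overlapped. The difference was 2.81 (SE 0.50, limma adjusted p = 0.0077). Pclaf, a partner of the replication clamp that was in none of the lists, differed by 2.64 and is given without p like the other division genes. Several further rises were picked after their values were seen and span adhesion, motility and amino acid uptake. Cd44 (chr2:102811141-102901665, GRCm38), a receptor for hyaluronan, had 68.1 to 113 CPM in the high mice (median 87.0) and 16.9 to 34.2 in the low mice (median 22.3). It rose by 1.90 (SE 0.18, limma adjusted p = 9.6e-05), and all high mice were above all low mice. S100a4 (chr3:90603771-90606045, GRCm38), a calcium-binding protein of motile cells, had 33.9 to 120 CPM in the high mice and 8.58 to 17.7 in the low mice. It rose by 2.14 (SE 0.27, limma adjusted p = 0.0005), again with no overlap. The amino acid transporters Slc7a5 (1.94) and Slc7a1 (1.89) and the matrix proteoglycan Vcan (1.84) rose as well, each with a limma adjusted p of 0.0038 or lower. The calls of Il1rn, Cd44, S100a4, Slc7a5, Slc7a1 and Vcan were each lost 0 times when 12 mice were left out in turn.

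Genes of Myc and ribosome assembly were higher, with a median of 0.68 and 9 of 18 past the threshold, all 9 higher, against 2.81% of all genes. Npm1 (nucleophosmin) of the nucleolus had 137 to 252 CPM in the high mice and 69.7 to 97.4 in the low mice, a rise of 1.19 (limma adjusted p = 0.0009). Odc1, the first enzyme of polyamine synthesis and a Myc target, rose by 1.64 (limma adjusted p = 0.0081). Myc itself was higher by 1.40 without passing (limma adjusted p = 0.0902), at 3.22 to 22.0 CPM against 1.70 to 7.74. The summed level of the list was 941 to 1401 CPM in the high mice and 618 to 791 in the low mice, with no overlap.

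Hmga2 and 3 genes picked after their values were seen, Esx1, Dusp9 and Fosl1, were high in 5 of the 6 high mice and not in control PBS 4. Hmga2 (chr10:120361275-120476469, GRCm38), a chromatin protein of embryos and tumors, had 22.6 CPM in control PBS 1, 32.9 in wheel PBS 4, 23.8 in control PBS 6, 11 in control clodronate 3 and 7.05 in wheel clodronate 3. In control PBS 4 it was at the floor of 1, as it was in 5 of the 6 low mice, while control clodronate 1 had 4.98. Hmga2 rose by 2.38 (SE 0.59, limma adjusted p = 0.0437) over the 6 mice a side. Esx1 (chrX:137115397-137122083, GRCm38), a homeobox gene of the placenta, had 4.53 to 39 CPM in the other 5 high mice, 1 in control PBS 4 and at most 2.05 in the low mice, a rise of 2.39 (limma adjusted p = 0.0434). Dusp9 (chrX:73639419-73643514, GRCm38), a phosphatase of MAP kinases known from placenta, had 4.81 to 33.2 CPM in those 5, 1.11 in control PBS 4 and at most 2.00 in the low mice, a rise of 2.35 (limma adjusted p = 0.0399). Fosl1 (chr19:5447547-5455946, GRCm38), a subunit of the AP-1 factor, had 7.90 to 35.4 CPM in those 5, 1.05 in control PBS 4 and at most 2.29 in the low mice, a rise of 2.54 (limma adjusted p = 0.0257). With 12 mice left out in turn, the call was lost 10 times for Hmga2, 10 for Esx1, 9 for Dusp9 and 7 for Fosl1, with limma adjusted p up to 0.0979. Control PBS 4 therefore sat with the low mice for these genes and, as its rank requires, with the high mice for division genes.

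The pattern of control PBS 4 was looked at further after these values were seen, and no test was made of it. Of the 15131 genes tested, 14 met limits set for this mouse. They were above 4 CPM in each of the other 5 high mice. Both in control PBS 4 and in the median low mouse they were below 2.5 CPM. The same search was not made for the other high mice. Whether the number is particular to control PBS 4 was therefore not tested. The limits themselves chose these genes, so their values are a description. Besides the 4 above they were Timp1, Plaur, Lrp8, Slc15a3, Pvt1, Ly6c2, Slc16a3, Il18bp, Adssl1 and Gm10036. The last 6 of these, from Pvt1 on, did not pass the threshold between the high and low mice. Without control PBS 4 the differences were 2.91 for Hmga2, 2.89 for Esx1, 2.84 for Dusp9 and 3.08 for Fosl1, larger as the choice of the mouse requires. The division lists changed little without it, with a median of 1.70 for kinetochore and 1.53 for mitotic regulators. Mice in the middle of the ranking varied as well, with Hmga2 at 1 to 11.6 CPM and Esx1 at 1 to 12.7.

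**Figure D4:**
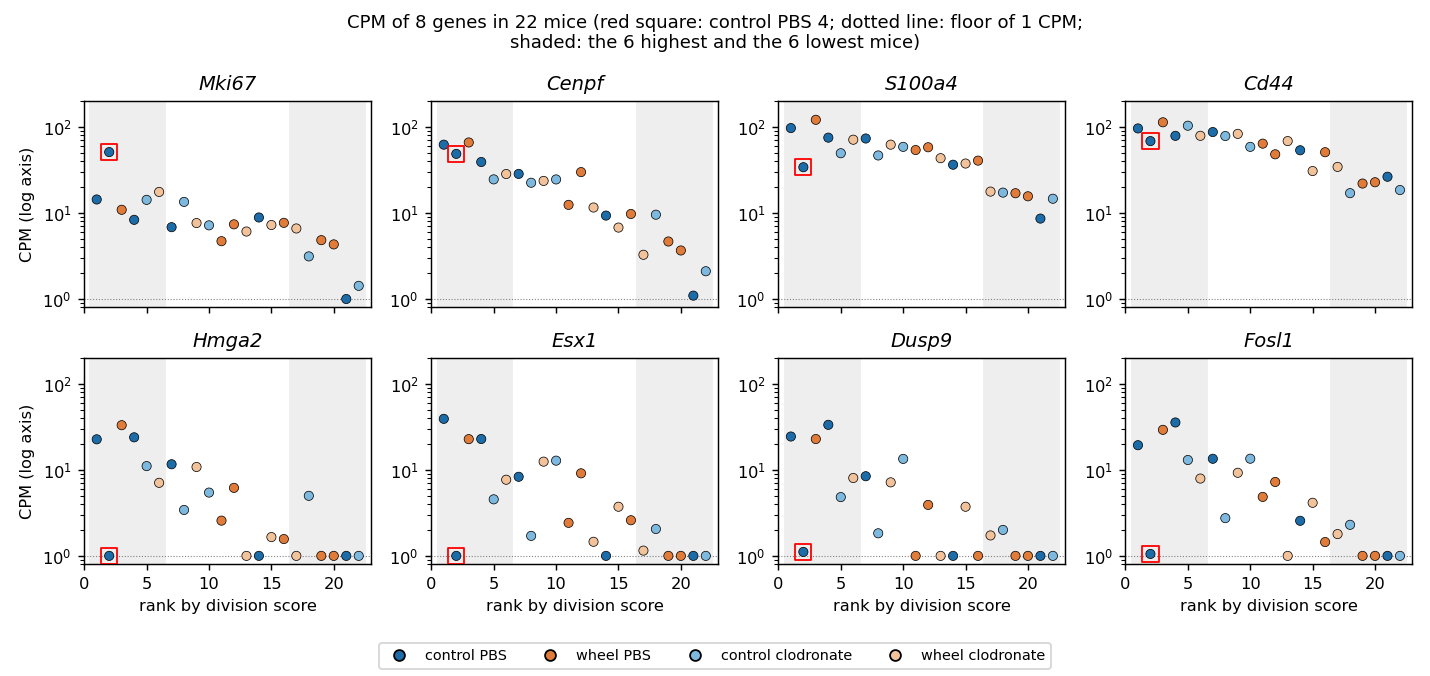
CPM on a log axis is plotted against rank by division score for 8 genes in all 22 mice, coloured by group, with control PBS 4 in a red square. That mouse has 50.8 CPM of Mki67 and 68.1 of Cd44 but lies at or near the floor of 1 CPM for Hmga2, Esx1, Dusp9 and Fosl1.

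The oncofetal and growth factor list as a whole had a median of 0.97, with 7 of its 11 genes tested and 2 past the threshold, against 2.81% of all genes. Both calls, those of Hmga1 and Hmga2, were lost with activity and liposome as covariates, where the median was 1.03. Hmga1, a relative of Hmga2, was at the floor in all 6 low mice and at 1.51 to 8.19 CPM in the high mice (limma adjusted p = 0.0449), a call lost 9 times when each of 12 mice was left out. Igf2bp2, an RNA-binding protein of fetal growth, was higher by 1.12 without passing (limma adjusted p = 0.107).

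Of 14 glycolysis genes 1 was called higher, and of 8 hypoxia targets tested 1 was called lower. Of all genes, 2.81% were called higher and 0.383% lower. After upper-quartile scaling 2 of the 8 hypoxia targets were called lower, and without keratinocyte-rich mice 1 was called in each direction. Of the 14 glycolysis genes 12 had a difference above 0, against 58.2% of all genes. Their median was 0.37 (0.87 without keratinocyte-rich mice, where 3 passed). The 1 that passed was the platelet phosphofructokinase Pfkp, with 26.1 to 52.7 CPM in the high mice against 15.1 to 25.0. It rose by 0.84 (limma adjusted p = 0.0221, up to 0.0579 with 1 mouse left out). Slc16a3, which exports lactate, differed by 2.55 without passing (limma adjusted p = 0.132). It had 1.05 CPM in control PBS 4 and 19.7 to 96.2 in the other high mice (a difference of 3.28 without control PBS 4, a mouse singled out after its value was seen). The glucose transporter Slc2a1 differed by 1.18 (limma adjusted p = 0.0862). The 8 hypoxia targets tested had a median of 0.19, and the mitophagy gene Bnip3 fell by 0.72 (limma adjusted p = 0.0113), from 214 to 358 CPM in the low mice to 151 to 210 in the high mice. Adm (adrenomedullin) differed by 1.00 and Egln3, an oxygen-sensing hydroxylase, by 0.59 (limma adjusted p = 0.096 and 0.334).

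Genes of wound response and of myeloid cells were higher for single members, where 2.81% of all genes tested were called higher. Timp1, an inhibitor of matrix proteases, rose by 1.79 (limma adjusted p = 0.0189, up to 0.052 with 1 mouse left out), with 2.34 to 15.2 CPM in the high mice and 1 to 3.07 in the low mice. Ccl2, which draws monocytes, differed by 2.51 without passing (limma adjusted p = 0.0541), and control PBS 4 was at the floor for it. Without that mouse, singled out after its value was seen, the difference was 3.06. The matrix protein Tnc differed by 1.51 (limma adjusted p = 0.0591). The 11 wound response genes had a median of 0.64 and 1 passed. Of these genes 10 had a difference above 0, against 58.2% of all genes, and 1 was below 0 (-0.38). Of 10 macrophage markers Cd68 alone passed, at 6.38 to 36.3 CPM against 3.23 to 10.8 (rise of 1.52, limma adjusted p = 0.044), a call lost after upper-quartile scaling (limma adjusted p = 0.0515) and without any of 10 of the 12 mice in turn. Fcgr1 and C1qb differed by 1.5 and 0.66 (limma adjusted p = 0.124 and 0.0691). The list's median was 0.43, with 8 members above 0 and 2 below, the lowest at -0.39. Csf1r, Mrc1 and Adgre1 were at 0.12, 0.35 and 0.54. The summed level of the macrophage markers was 321 to 507 CPM in the high mice and 216 to 428 in the low mice. Of 8 neutrophil markers tested none passed, with a median of 0.53 and summed levels of 20.2 to 76.1 against 11.1 to 25.7 CPM. Il1r2, Mmp9 and Il1b led it at 1.18, 1.1 and 0.92 (limma adjusted p = 0.377, 0.108 and 0.129).

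Markers of adipocytes, endothelium and luminal epithelium mostly had differences below 0, although few single genes passed. Of all genes tested, 58.2% had a difference above 0, and 0.383% were called lower. Basal epithelial and brown adipocyte markers were mostly above 0 (5 of 6 and 4 of 5). The basal median was below 0 (-0.58) without keratinocyte-rich mice. Fibroblast markers were mixed, with 3 of 8 above 0 and 5 below. All 10 adipocyte markers were below 0 in their difference, with a median of -0.59. Cidec, a coat protein of fat droplets, fell by 0.67 (limma adjusted p = 0.0221), from 818 to 1076 CPM in the low mice to 501 to 811 in the high mice. Pnpla2, the first lipase of fat breakdown, fell by 0.67 as well (limma adjusted p = 0.0469), but that call was lost without any of 10 of the 12 mice in turn (limma adjusted p up to 0.107), and that of Cidec without any of 4 (up to 0.059). Adipoq (adiponectin) differed by -0.73 without passing (limma adjusted p = 0.0664), while Lep (leptin) differed by -0.80 and Lpl (lipoprotein lipase) by -0.74 (limma adjusted p = 0.503 and 0.269). The summed level of the list was 13038 to 23313 CPM in the high mice and 21498 to 30699 in the low mice. All 8 endothelial markers were also below 0, with a median of -0.54 and none past the threshold, as were 12 of 13 luminal epithelial markers, with a median of -0.57 and none past it. Cldn3, a tight junction protein, and Prlr, the prolactin receptor, differed by -0.89 and -0.86 (limma adjusted p = 0.241 and 0.132), while Areg, a growth factor of the ducts, differed by 1.07 (limma adjusted p = 0.461). The endothelial junction genes Esam (-0.72) and Cdh5 (-0.65) and the receptor Tie1 (-0.69) had limma adjusted p of 0.138, 0.1 and 0.226. Csn3 (kappa casein), the single milk protein gene tested of 5, differed by -1.26 (limma adjusted p = 0.105).

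Of the 58 genes that fell, the 10 largest ranged from -1.61 to -0.96. They included Chil1, a chitinase-like secreted protein, with 2.13 to 9.70 CPM in the high mice and 12.1 to 47.0 in the low mice (a fall of 1.47, limma adjusted p = 0.0385). Gsta3, a glutathione transferase, had 14 to 32.7 CPM against 39 to 109 (a fall of 1.22, limma adjusted p = 0.0225). Aldh1a1, which makes retinoic acid, had 19.8 to 55.6 against 53.8 to 75.0 CPM (a fall of 0.99, limma adjusted p = 0.0257). Leaving out each of 12 mice in turn lost the call 9 times for Chil1, 3 times for Gsta3 and 5 times for Aldh1a1, and 8 to 10 times for Tfcp2l1, Clic6, Pllp, Shroom2 and Gm42892, but 0 times for 3110079O15Rik and BC067074. The groups were apart for Chil1 and Gsta3 and touched for Aldh1a1. Also among the 10 were the epithelial factor Tfcp2l1 (-1.17), the chloride channel Clic6 (-1.13), the membrane protein Pllp (-1.0), the actin-binding protein Shroom2 (-1.0) and BC067074 (-1.23), with 2 entries known by clone names, 3110079O15Rik (-1.61) and Gm42892 (-0.96).

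Marker scores of other cell types varied widely between mice. Counts without mice rich in keratinocyte or lymphocyte markers are given here, but the cause of their changes was not tested. Keratinocyte marker scores, the mean log2(CPM + 1) of 6 genes of skin, ran from 1.86 to 9.90 in the high mice and from 1.77 to 8.77 in the low mice. Their summed level was 19.2 to 9895 CPM in the high mice and 17.6 to 4776 in the low mice, and none of the 6 was at the floor in all 12 mice. A score above 6 was seen in 3 high mice (control PBS 4, control clodronate 3 and wheel clodronate 3), 1 low mouse (wheel clodronate 2) and 7 of the 10 middle mice. Without these, 3 high and 5 low mice gave 822 higher and 127 lower genes. Lymphocyte marker scores above 3 were seen in 1 high mouse (wheel clodronate 3, 5.62), no low mouse and 4 middle mice. Without that mouse there were 357 higher and 37 lower genes. Skeletal muscle marker scores ran from 1.86 to 7.4 in the high and from 1.99 to 9.69 in the low mice. None of the lymphocyte, plasma cell, cytotoxic lymphocyte, keratinocyte, basal epithelial, muscle, erythroid, fibroblast, brown adipocyte, Schwann cell, germinal center or neutrophil precursor markers passed the threshold in the comparison of 6 with 6 mice. The median differences of several of these lists rested on few mice. The keratinocyte median was 1.73, and it was 1.18 without control PBS 4 and -0.10 without keratinocyte-rich mice. Without wheel clodronate 3 the median went from 0.80 to -0.0062 for lymphocyte, from 0.67 to -0.077 for plasma cell, from 0.50 to 0.093 for cytotoxic lymphocyte and from 0.53 to 0.16 for muscle markers. The basal epithelial median was 0.75, and 0.32 without control PBS 4. It was -0.58 without keratinocyte-rich mice and -0.29 with the keratinocyte score as a covariate. The brown adipocyte median was 0.24, and 0.36 without control PBS 4 or 0.43 without wheel clodronate 3. Medians were -0.01 for Schwann cell, -0.13 for fibroblast, -0.24 for germinal center, -0.39 for neutrophil precursor and -0.50 for erythroid markers. The last 4 stayed below 0 without control PBS 4, without wheel clodronate 3 and without keratinocyte-rich mice. All 6 erythroid markers tested had a difference below 0, and their median was -0.29 without keratinocyte-rich mice.

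**Figure D5:**
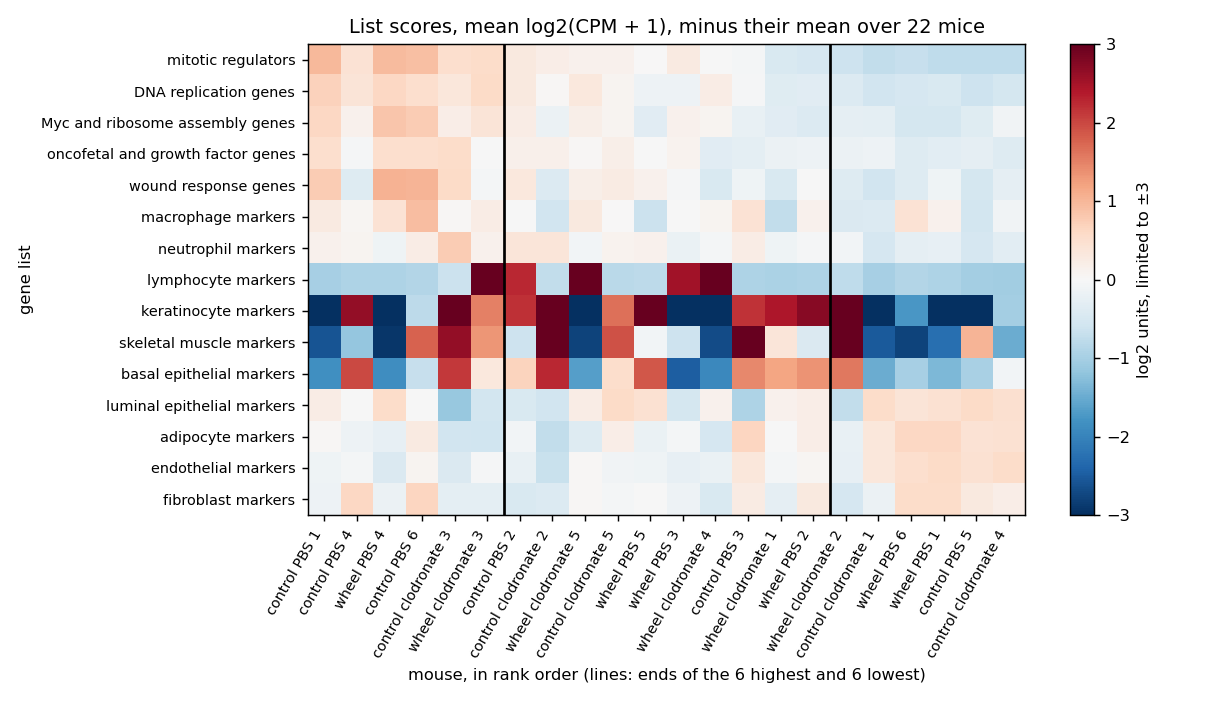
Colours give list scores, the mean log2(CPM + 1) of each list minus its mean over 22 mice, in rank order from left to right, limited to 3 either way. Mitotic, replication and Myc lists grade from high to low mice, adipocyte and endothelial markers tend the other way, and keratinocyte, muscle and lymphocyte markers vary from mouse to mouse.

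The 10 middle mice, whose scores ran from 3.21 to 4.45, gave values from animals outside the comparison. The slope of each gene on the score passed an adjusted p of 0.05 for 0 of 15117 genes in limma, and 417 had an unadjusted p under 0.05. Of the 323 genes higher outside the division lists, 287 had a slope above 0, against 51.7% of all genes. At an unadjusted limma p under 0.05, 30 did so, against 1.32%. The 323 still held division genes that no list named, such as Pclaf, so part of them share the program used for ranking. Of the 58 lower genes, 54 had a slope below 0, against 48.3%, and 13 at an unadjusted p under 0.05, against 1.44%. Of the 159 division genes, 134 had a slope above 0 and 29 at an unadjusted p under 0.05. The direction seen at the ends of the ranking was thus mostly kept between them, though genes share mice and are not independent.

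Single genes differed in this respect. Cd44 had a slope of 0.85 per unit of score (limma unadjusted p = 0.0021), at 30.6 to 86.8 CPM in the middle mice. S100a4 had 0.59 (limma unadjusted p = 0.0141), Slc7a1 1.15 (limma unadjusted p = 0.0235) and Hmga2 1.74 (limma unadjusted p = 0.0064). Esx1 (1.01), Dusp9 (1.22) and Fosl1 (1.34) had slopes above 0 with limma unadjusted p of 0.186, 0.0981 and 0.059. Il1rn had 0.30 (limma unadjusted p = 0.722). Among genes that fell, picked after their values were seen, Fam13a (-0.71), Slc7a10 (-0.85), Lifr (-0.53) and Per3 (-0.60) had slopes with limma unadjusted p of 0.0106, 0.0198, 0.0199 and 0.0403. All of these had a limma adjusted p near 1 in the middle mice.

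Depth and mapping overlapped between the ends of the ranking. The high mice had 13701891 to 17947621 reads and the low mice 13934997 to 20484578, with 58.4 to 63.1% and 58.6 to 63.9% of reads assigned to genes. Genes above the floor numbered 13253 to 13981 in the high mice and 13011 to 13519 in the low mice. The median log2(CPM + 1) of tested genes was 3.36 to 3.53 in the high mice and 3.18 to 3.39 in the low mice. Fat pad markers such as Adipoq (at least 865 CPM in each mouse) were present throughout.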

How the data were processed

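RNA of whole mammary tissue from 22 mice was sequenced from the 3′ end of transcripts with the Lexogen QuantSeq forward kit, which gives 1 read per transcript, so no length correction was made. The submitters' processing notes name STAR 2.5.3a and GRCm38. The read counter and annotation are not given in the sources used here. The authors deposited a signal per gene and mouse as counts scaled to a fixed total of reads (CPM), with values under 1 raised to 1. The total included unmapped and multiply mapping reads, whose entries were left out of all tests. The CPM steps gave each mouse's depth, 13256467 to 20484578 reads, so the floor hid at most 13 to 20 reads of a gene. Because of that floor no count test was run.

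The mice, gene lists and comparisons were chosen with earlier results of these data known. All gene lists were fixed by hand from known functions. Of 52526 symbols, 94.5% matched GENCODE M21, from which coordinates were taken, and for the 106 listed more than once the entry with the highest mean was kept. High and low mice were compared on log2(CPM + 1) with limma 3.58.1 (eBayes with a trend, R 4.3.3) over genes above 1 CPM in at least 5 mice, and adjusted by the Benjamini-Hochberg method. The slope on the score was fitted with limma in the 10 other mice. Scores were compared between groups by permutation, and the fall of high and low mice over the design by Fisher's exact test (scipy 1.17.1). Each mouse was a separate animal, and no 2 libraries of a group were duplicates. On simulated data for 6 against 6 mice over 15138 genes, 49% of 100 genes changed 2-fold and 100% of 100 changed 4-fold were recovered. The changed genes were drawn from those with a mean of at least 5 CPM, and the simulated spread between mice was set rather than measured. Whether these shares hold for the measured genes was not tested. A large measured difference did not always pass. Slc16a3 and Ccl2 differed by 2.55 and 2.51 without passing (limma adjusted p = 0.132 and 0.0541).

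Genes were named by rule: the 10 largest rises and falls at an adjusted p under 0.05, the 3 members of each list with the largest difference, and markers of lists that moved. For lists of other cell types with no member past the threshold, other than adipocyte, luminal, endothelial, neutrophil and milk genes, only counts, medians and sums are given. Alternatives covered the pseudocount, filters, scaling, covariates, rankings and leaving out mice. Promoter letters came from RefSeq.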

Additional observations from a re-analysis of the deposited data

Results flagged for a closer look

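Scores of 17 lists were searched for a mouse apart from the others of its group by Dixon's test at 95%, and 7 of 68 groups were flagged, where chance gives about 3.4. The DNA replication score of wheel PBS 4 was 3.48, with 2.71 in the nearest mouse of its group. Wound response genes in the same mouse scored 4.57, with 3.66 in the nearest. The lymphocyte score was 4.30 in control PBS 2 (nearest 1.15) and 4.55 in wheel PBS 3 (nearest 1.25). Luminal epithelial markers scored 4.65 in wheel PBS 3, with 5.36 in the nearest. Neutrophil markers scored 1.06 in control PBS 5 (nearest 1.66) and 1.70 in wheel clodronate 3 (nearest 1.51).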

How the results depend on the processing

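The number of genes higher in the high mice (425) kept within 1.5 times under every alternative except those on keratinocyte markers, which, like scaling to assigned reads (523 higher, 69 lower), were chosen after seeing the data. It was 822 without keratinocyte-rich mice (127 lower) and 655 with their score as a covariate (79 lower). The number lower (58) was 130 after upper-quartile scaling, 153 with activity and liposome as covariates, 230 for the slope over all 22 mice, 37 without lymphocyte-rich mice and 25 with the lymphocyte score as a covariate. The cause was not tested. Without 1 mouse at a time there were 235 to 507 higher and 16 to 134 lower genes. The number higher moved by over 1.5 times without control PBS 1 (266), wheel PBS 4 (235), control PBS 6 (281), control clodronate 1 (265), wheel PBS 6 (242), wheel PBS 1 (241), control PBS 5 (271) or control clodronate 4 (269). The number lower did so for 34, 18, 32, 16, 20, 22 and 18 genes without these mice other than control PBS 6, and for 37 without wheel clodronate 3 and 134 without wheel clodronate 2. The slope in the middle mice passed for 0 genes under each of its 3 alternatives, with 253 to 874 at an unadjusted p under 0.05. For named genes, 1231 values under alternatives kept direction and call, 93 lost the call, 31 gained it and 38 of division genes without a test moved beyond the spread, and 0 reversed. Without 1 mouse, 200 lost the call, 18 gained it and 0 reversed.

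The wheel difference of the score ran from -1.33 to -0.52 with PBS liposomes when 1 mouse was left out. With clodronate liposomes it ran from -0.11 (without control clodronate 4) to 0.78, and it was -0.32 without lymphocyte-rich mice (exact permutation p = 0.81). Clodronate minus PBS ran from -0.33 to 0.12 (without control clodronate 4), and was 0.0077 without control PBS 1 and 0.0063 without control PBS 4. With 8 mice a side, 2 of the high and 5 of the low mice had wheels (Fisher's exact test, p = 0.315). Replicate numbers mark different animals, and deviations of same-numbered mice correlated on average by -0.075 with PBS and 0.18 with clodronate liposomes, so the samples were not taken as paired. With the replicate block the wheel difference was -0.81 with PBS liposomes (exact sign-flip permutation p = 0.344) and 0.39 with clodronate liposomes (exact sign-flip permutation p = 0.625).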
